A study of Homo sapiens with 36 samples.

Results

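Binding of tagged HIF-α was examined at 9 genes of the epithelial-mesenchymal transition (EMT). They comprise the transcription factors SNAI1, SNAI2, TWIST1, ZEB1 and ZEB2, the cadherins CDH1, CDH2 and CDH6, and VIM, which encodes the intermediate filament protein vimentin. A peak was assigned to a gene when its summit lay in the GENCODE gene body or within 50 kb on either side, a span called the window of that gene. By this rule 242 of the 213711 peaks in 18 anti-V5 peak lists belonged to a member. Overlapping peaks merged into 72 regions of 61215 in all, and 27 of these were called in at least 2 lists, of 25783 such regions in the genome (consensus regions below).

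Cut&Run uses an antibody to bring a nuclease to the chromatin around a protein and sequences the fragments that it releases. It was done in 786-O, an established clear cell renal carcinoma line that lacks functional VHL, which leaves its HIF-2α undegraded when oxygen is normal, and that makes no functional HIF-1α. All 6 lines share this background, no low-oxygen treatment is named for them, and each gave 3 biological replicates with an anti-V5 and an IgG library. Wild-type (WT) cells carry no tag and give the background of the antibody. In HIF-2α KIN, a single homozygous clone (A31), the endogenous protein carries V5 and Halo tags at its N terminus. The other 4 lines express a V5-Halo-tagged protein weakly from an L30 promoter on top of the untagged HIF-2α of the cells: HIF-2α, HIF-1α, HIF-2α/1α (residues 1-365 of HIF-2α and 364-826 of HIF-1α) or HIF-1α/2α (residues 1-363 of HIF-1α and 366-870 of HIF-2α). The part before the slash holds the DNA-binding and dimerization domains (DBD here), and the part after it the intrinsically disordered region (IDR).

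In EMT, epithelial cells give up junctions built on E-cadherin, the product of CDH1, and take on N-cadherin (CDH2) and vimentin. The SNAI and ZEB zinc finger proteins and the helix-loop-helix protein TWIST1 drive this change and repress CDH1. HIF-α binds DNA as a dimer with HIF-1β at hypoxia response elements, whose core reads ACGTG or GCGTG, and SNAI1 and TWIST1 have been described as genes that respond to hypoxia.

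The lists held 392 to 20808 peaks, and the genome-wide mean depth solved from them was 0.241 to 0.625 fragments per base. WT replicate 2 stood apart with 9508 peaks, against 392 and 743 in the other WT lists, and it held all 9 WT peaks at the members. HIF-2α replicates 1 and 3, with 6590 and 5906 peaks, were the shortest exogenous lists, and the other 10 held 11679 to 20808. A peak list with a fixed q-value cutoff grows with depth and signal, so a region that is not called in a list is not shown to be unbound there.

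VIM, SNAI1, CDH2 and ZEB2, 4 of the 9 members, each had a region called in at least 12 of the 15 tagged lists and in no WT list, beside 27.1% of 19663 protein-coding genes whose windows were drawn in the same way. At VIM the region was called in all 15, which held for 1 of 9 members beside 10.8%. At CDH1, CDH6 and SNAI2 no region exceeded 6 tagged lists. ZEB1 and TWIST1 had no consensus region, so that 7 of 9 members had one, beside 76.7%. These shares were not matched for length: the median window was 198 kb for the members and 127 kb for all genes. A longer window has more room for a region. Per 100 kb of window the median was 1.16 consensus regions for the members and 1.28 for all genes. Within CDH2 and at the CDH6 promoter a region was called in lists with the HIF-1α DBD and in no other. The 9 windows together held 21 ± 6.93 peaks for each list of HIF-1α/2α (SD, n = 3), 20.3 ± 3.21 for HIF-1α, 16.3 ± 4.04 for HIF-2α/1α, 12 ± 10.4 for HIF-2α, 8 ± 6 for HIF-2α KIN and 3 ± 5.20 for WT. As a share of the list these peaks made up 0.143% ± 0.0115 in HIF-1α/2α and 0.119% ± 0.00163 in HIF-1α. The shares were 0.103% ± 0.0126 in HIF-2α, 0.0978% ± 0.00211 in HIF-2α/1α and 0.0886% ± 0.0333 in HIF-2α KIN. In WT the share was 0.0316% ± 0.0547, from 0.0947% in replicate 2 and 0% in replicates 1 and 3. The untagged replicate 2 thus lay above the mean of HIF-2α KIN and near that of HIF-2α/1α. Differences between these shares were not tested.

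**Figure D1:**
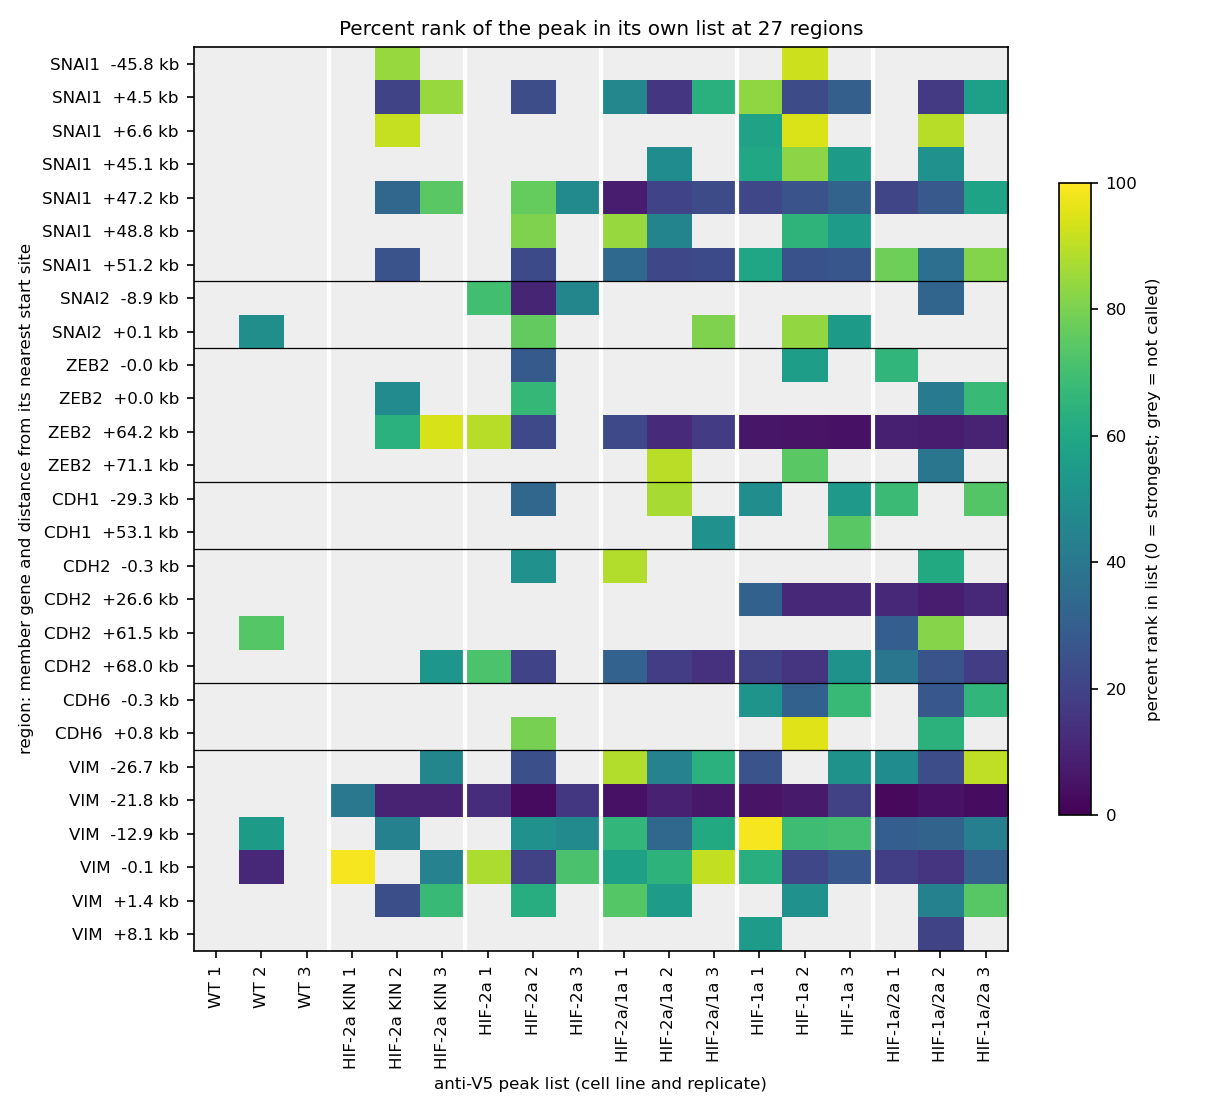
Percent rank of the peak in its own list (0 is the strongest peak of the list, 100 the weakest) at the 27 consensus regions of the members, one column for each of the 18 anti-V5 lists and one row for each region, named by its gene and the distance in kb of its summit from the nearest annotated start site of that gene. Grey cells were not called; the VIM row at 21.8 kb upstream is the only one filled in all 15 tagged lists, and the CDH2 row at 26.6 kb is filled only in the 6 lists with the HIF-1α DBD.

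The sequence under the summit was read for the 27 consensus regions of the members and is printed for 5. These are the member region called most often and the 2 that passed an unadjusted test of the DBD in calls. The others are the one at GTDC1 whose percent ranks did not overlap between DBDs, and the one within SNAI1. The window of 201 bases around the median summit is printed 5′ to 3′ on the strand of the member gene. Capitals mark ACGTG or GCGTG on either strand (on the other strand CACGT or CACGC) and the AP-1 words TGACTCA and TGAGTCA, which are each other's reverse complement. The first region lies upstream of VIM (hg38 chr10:17206351-17206551, plus strand), the next in an intron of CDH2 (chr18:28150284-28150484, minus strand), then the CDH6 promoter (chr5:31193276-31193476, plus strand), the ZEB2 window at the start of GTDC1 (chr2:144332125-144332325, minus strand) and SNAI1 (chr20:49987424-49987624, plus strand).
VIM upstream: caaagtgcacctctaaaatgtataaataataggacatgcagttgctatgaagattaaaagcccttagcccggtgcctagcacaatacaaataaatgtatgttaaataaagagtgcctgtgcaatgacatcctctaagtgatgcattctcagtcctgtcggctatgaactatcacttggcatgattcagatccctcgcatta
CDH2 intron: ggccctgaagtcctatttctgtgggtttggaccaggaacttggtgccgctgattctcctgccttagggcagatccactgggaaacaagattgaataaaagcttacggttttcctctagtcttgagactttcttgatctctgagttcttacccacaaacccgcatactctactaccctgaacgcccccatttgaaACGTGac
CDH6 promoter: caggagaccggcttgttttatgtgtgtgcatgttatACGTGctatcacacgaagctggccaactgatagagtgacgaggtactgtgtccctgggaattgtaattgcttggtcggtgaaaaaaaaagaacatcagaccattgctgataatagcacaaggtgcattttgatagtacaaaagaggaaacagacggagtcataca
ZEB2 window, GTDC1 start: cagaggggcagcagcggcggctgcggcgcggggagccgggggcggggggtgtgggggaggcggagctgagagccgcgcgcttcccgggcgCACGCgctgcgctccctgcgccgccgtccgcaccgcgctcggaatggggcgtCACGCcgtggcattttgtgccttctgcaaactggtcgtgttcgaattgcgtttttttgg
SNAI1 intron: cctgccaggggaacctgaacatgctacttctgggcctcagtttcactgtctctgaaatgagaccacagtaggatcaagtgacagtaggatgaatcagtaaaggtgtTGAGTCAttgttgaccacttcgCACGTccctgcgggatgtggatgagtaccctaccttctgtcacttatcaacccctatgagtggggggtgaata

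The VIM upstream window holds neither word set, although it was the member region called most often. The CDH2 window has 1 ACGTG whose centre lies 96 bases from the summit, and the CDH6 window 1 ACGTG at 62 bases. The GTDC1 window has 2 GCGTG words, 8 and 44 bases from the summit. The SNAI1 window has an AP-1 word at 9 bases and an ACGTG at 30 bases. In windows of this length, 14 of the 27 member regions (51.9%) held ACGTG or GCGTG, as did 45.5% of all 25783 consensus regions and 69.4% of the 1201 regions called in all tagged lists and no WT list. An AP-1 word was found in 6 of 27 (22.2%) and in 17.3% of all. A match is a description of the letters, and no match says only that these words are absent from this window.

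Tagged lists were first compared with WT, which asks where a call depends on the tag. Of the 27 member regions 1 passed Fisher's exact test after Benjamini-Hochberg adjustment over all consensus regions, beside 4.66% of all regions tested. This was the region upstream of VIM. A WT list called 4 of the 27 regions, beside 14.3% of all consensus regions, each of them in WT replicate 2 alone. At least 2 of the 3 HIF-2α KIN lists, where the protein comes from its own locus, called 6 of 27 regions, beside 19.6%: 3 in the VIM window, 2 in that of SNAI1 and 1 in that of ZEB2.

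SNAI1 encodes Snail, a repressor of CDH1. Its window held 7 consensus regions in 105.907 kb, none of them called in WT. The region closest to the gene (chr20:49987008-49987784) had its summit 4.54 kb downstream of the start site, in an intron of the annotated gene. It was called in 2 of 3 HIF-2α KIN lists, at 98.0 and 39.0 times the genome-wide mean depth, and in 1 HIF-2α list at 121 times. HIF-2α/1α called it in all 3 lists at 38.3, 187 and 64.9 times, HIF-1α in all 3 at 26.9, 104 and 60.7 times, and HIF-1α/2α in 2 at 134 and 59.5 times. The ranges of the lines with more than 1 call overlapped, and the single HIF-2α value lay above those of HIF-2α KIN and HIF-1α. All 6 lists with the HIF-1α IDR and 3 of 6 with the HIF-2α IDR called it, a difference that did not pass (exact p = 0.182).

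Beyond SNAI1, regions 41.3 kb and 45.3 kb past the end of the gene (chr20:50029907-50030466 and chr20:50033575-50035172) were called in 13 and 11 tagged lists. Their median percent ranks were 27.8 and 26.7, against 30.3 for the region in the gene. No SNAI1 region lay within 1 kb of its start site. The other 4 regions were called in 2 to 5 lists, and one of them, 771 bp from the start of RNF114, belonged to a neighbour's promoter.

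SNAI2, the gene of Slug, had 2 consensus regions on chromosome 8. The region at its start site, 148 bp inside the gene, was called in 4 tagged lists and in WT replicate 2. Its level was 57.1 times the genome mean in WT and 36.4 to 65.3 times in the tagged lists, so that WT lay within their range. The other region, 8.86 kb upstream, was called in all 3 HIF-2α lists at 45.8, 125 and 55.2 times and in 1 HIF-1α/2α list at 70.5 times. No list with the HIF-1α IDR called it, and the difference by IDR, 4 of 6 against 0 of 6, did not pass (exact p = 0.0606).

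ZEB1 and TWIST1, both of which encode repressors of CDH1, held only regions of a single list. In the 311.32 kb window of ZEB1 there were 7, each at another position, with percent ranks of 68.3 to 99.5 and 4 to 9 fragments at the summit. One of these came from WT replicate 2. The only TWIST1 region was also called in WT replicate 2 alone, with 5 fragments. At this depth no repeated binding was detectable in either window.

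ZEB2 had 4 consensus regions. The strongest (chr2:144330968-144332892) lay 32.1 kb past the end of ZEB2 and 287 bp from a start site of GTDC1, a glycosyltransferase-like gene, so that it is a promoter region of the neighbour. It was called in 13 tagged lists and no WT list (exact p = 0.0123, adjusted p = 0.120). HIF-1α lists gave 147, 260 and 206 times the genome mean and HIF-1α/2α lists 141, 264 and 132 times. HIF-2α/1α lists gave 74.4, 186 and 126 times, while HIF-2α replicates 1 and 2 gave 30.6 and 89.5 times and HIF-2α KIN replicates 2 and 3 gave 50.8 and 39.0 times.

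The percent ranks at this GTDC1 region were 4.75 to 10.0 in the 6 lists with the HIF-1α DBD and 12.4 to 89.3 in the 5 lists with the HIF-2α DBD that called it. Every list with the HIF-1α DBD thus ranked the region above every list with the HIF-2α DBD that called it. This order held for 1 of the 6 member regions called in at least 5 of 6 lists on both sides. It held for 2.17% of the 4431 such regions in the genome, and groups separated in the opposite order were not counted. HIF-2α replicate 3 did not call the region, so that it was outside the test of ranks and this order was not tested. By fragments over the genome mean the groups overlapped, with 132 to 264 times for the HIF-1α DBD and 30.6 to 186 times for the HIF-2α DBD. At ZEB2 itself regions at 2 annotated start sites were called in 4 and 3 tagged lists, with levels of 59.5 to 72.7 and 31.7 to 69.0 times the genome mean and no WT call.

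**Figure D2:**
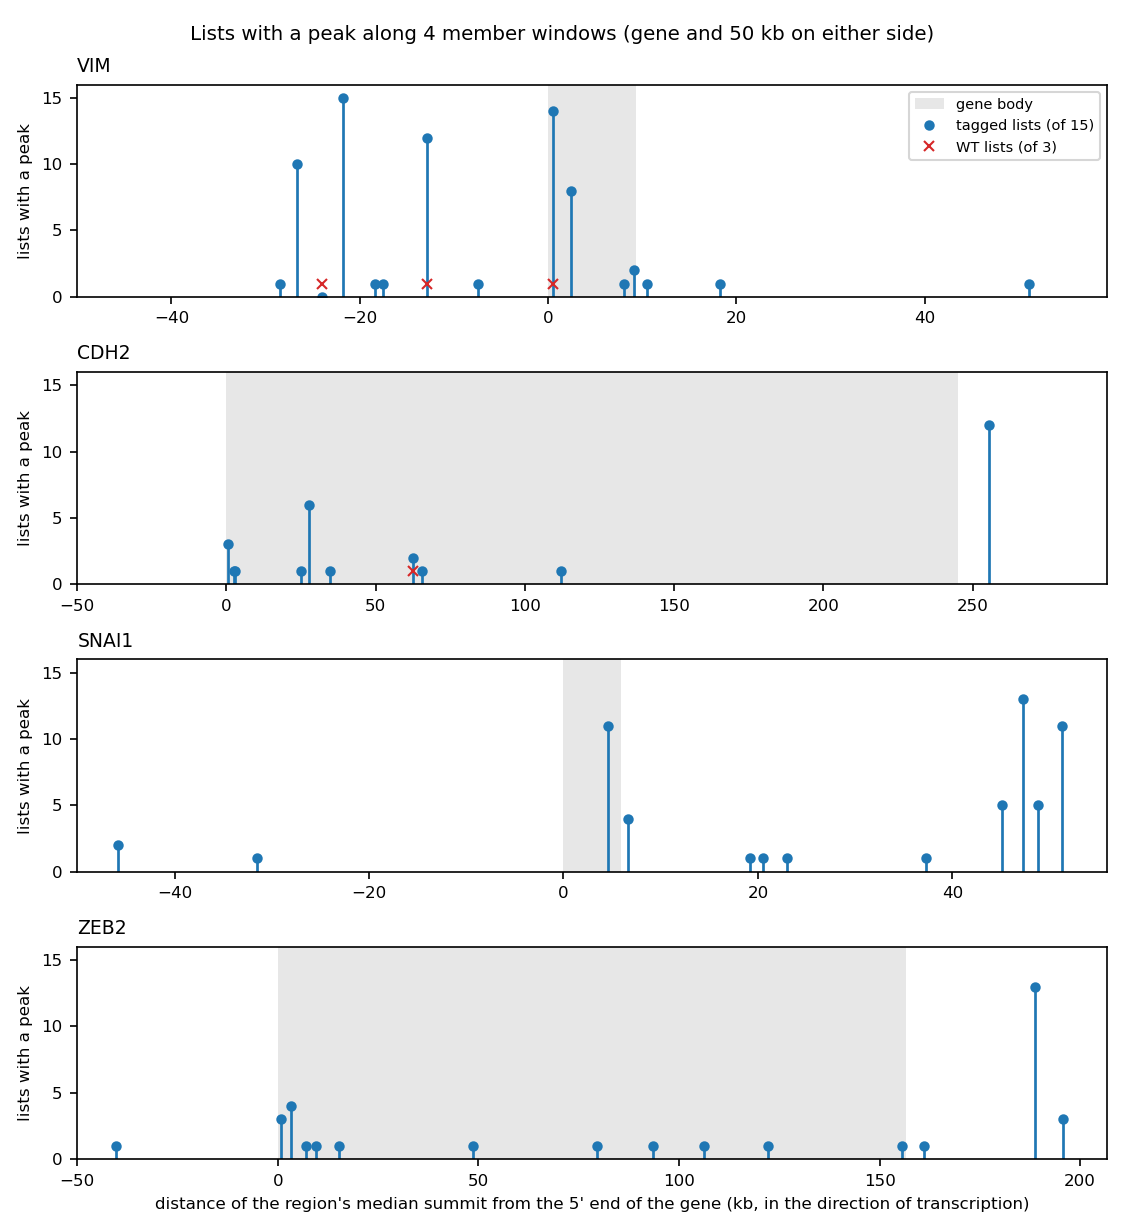
Number of anti-V5 lists with a peak (vertical axis) at each merged region of the VIM, CDH2, SNAI1 and ZEB2 windows, against the distance in kb from the 5′ end of the gene in the direction of transcription; circles count the 15 tagged lists, crosses the WT lists, and the grey band is the gene body. The tallest stem of each window stands upstream of VIM (15 lists), past the 3′ end of CDH2 (12 lists), past the end of SNAI1 (13 lists) and past the end of ZEB2 at GTDC1 (13 lists); the VIM promoter follows with 14 lists.

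CDH1, the E-cadherin gene that EMT factors repress, had 2 consensus regions and none within 1 kb of its start site. The first, 29.3 kb upstream in an intron of the neighbouring P-cadherin gene CDH3, was called in 6 tagged lists at 24.4 to 73.4 times the genome mean. Its deposited fold over local background was lower, from 2.99 in HIF-2α/1α replicate 2 to 9.60 in HIF-2α replicate 2. By DBD the calls were 2 of 6 and 4 of 6 (exact p = 0.567). The other, in an intron of CDH1, was called once with HIF-2α/1α and once with HIF-1α, at 58.1 and 30.4 times. HIF-2α KIN called neither.

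CDH2, the N-cadherin gene, had 4 consensus regions. Its intronic region (chr18:28150039-28151673), with the summit 26.6 kb inside the gene, was called in all 3 HIF-1α lists, with 22, 53 and 34 fragments at the summit, or 53.9, 138 and 115 times the genome mean. All 3 HIF-1α/2α lists called it too, with 37, 54 and 37 fragments, or 90.2, 190 and 122 times. No WT, HIF-2α KIN, HIF-2α or HIF-2α/1α list called it. The split thus followed the DBD, with 0 of 6 calls for the HIF-2α DBD and 6 of 6 for the HIF-1α DBD, and not the IDR, with 3 of 6 on each side.

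Fisher's exact test of the DBD gave p = 0.00216 for this region, the smallest that 6 lists against 6 allow. No region in the genome passed this exact test after adjustment (smallest adjusted p = 1), so the call rests on the unadjusted p. The test counts lists, but the 6 on each side are 3 replicates of only 2 lines. Differences between lines other than the DBD, such as expression of the tagged protein, cannot be told apart from it here or at CDH6. The 6 peaks ranked high, with a median percent rank of 11.3 and a range of 7.78 to 31.2. HIF-2α replicate 2 and the 3 HIF-2α/1α lists, which lacked the peak, held 20651, 16977, 20808 and 12371 peaks, against 11679 to 20572 in the lists that had it. HIF-2α replicates 1 and 3 lacked it too and were shorter than all of these, with 6590 and 5906 peaks. The part of list length in the missing calls was not tested. The number of fragments at a position that was not called is not in the peak lists.

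**Figure D3:**
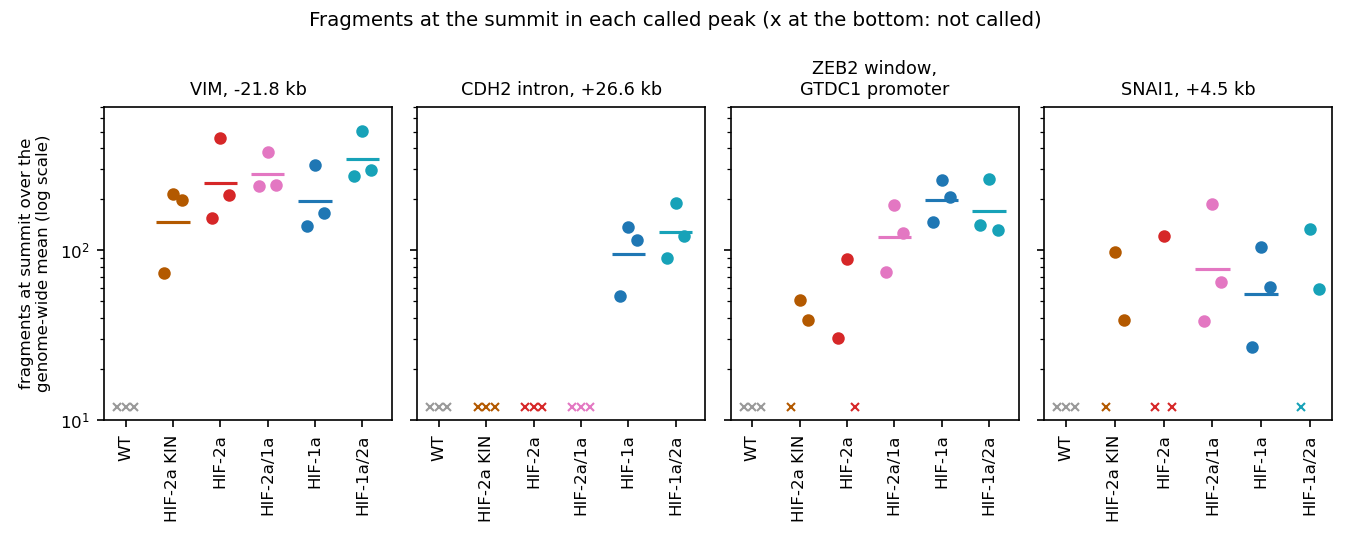
Fragments at the summit divided by the genome-wide mean depth (log axis) in each called peak at 4 member regions, by line, with one point for each list, a bar at the geometric mean where all 3 lists of a line called the region, and a cross at the bottom for a list that did not call it. The CDH2 region has points only in HIF-1α and HIF-1α/2α (53.9 to 190), while the VIM region has points in all 5 tagged lines (74.0 to 507).

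CDH6 encodes a cadherin of the kidney tubule. Its promoter region (chr5:31192672-31193799, summit 310 bp upstream of the start site, inside overlapping lncRNA genes) was called in all 3 HIF-1α lists at 34.3, 83.3 and 50.6 times the genome mean and in HIF-1α/2α replicates 2 and 3 at 84.6 and 39.6 times. None of the 6 lists with the HIF-2α DBD called it, nor did HIF-2α KIN or WT (DBD, exact p = 0.0152, adjusted p = 1). These peaks were weaker than those in CDH2, with a median percent rank of 51.8 and 12 to 32 fragments. A region 839 bp downstream of the start site was called in 3 lists, 1 of them HIF-2α, at 31.7 to 39.0 times.

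The CDH2 and CDH6 regions were the 2 of 27 member regions with an unadjusted exact p below 0.05 by DBD in calls, beside 0.562% of the 25285 regions tested, and both were called more often with the HIF-1α DBD, beside 0.486% in that direction. Over all 27 regions, 19 were called in more lists with the HIF-1α DBD, 3 in fewer and 5 in equal numbers. Of all regions 42.4% were called more often with the HIF-1α DBD and 25.0% less often. The 2 shortest exogenous lists both carry the HIF-2α DBD and the HIF-2α IDR, and their part in these counts was not tested. By IDR 0 of 27 member regions passed, beside 1.41%, with 15 called more often with the HIF-1α IDR and 6 less often (58.1% and 14.7% of all regions).

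The remaining CDH2 regions showed no such split. A region 10.6 kb past the end of the gene (chr18:27921754-27922553) was called in 12 tagged lists and no WT list, at 33.6 to 221 times the genome mean and a median percent rank of 23.0. All 5 tagged lines called it: HIF-2α KIN in 1 list, HIF-2α in 2, and the other lines in all 3 lists (adjusted p against WT = 0.166). The promoter region, 251 bp upstream, was called in 3 lists at 20.3 to 42.3 times. A further intronic region was called in 2 HIF-1α/2α lists and in WT replicate 2.

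VIM had 6 consensus regions in 109.353 kb. The leading one (chr10:17206229-17207055) was intergenic, 21.8 kb upstream of VIM and 4779 bp upstream of TRDMT1, a tRNA methyltransferase gene on the other strand, which is the nearest coding start site. It was called in all 15 tagged lists and in none of the 3 WT lists (exact p = 0.00123, the smallest this design allows, adjusted p = 0.0263). The adjusted p passes only because 1201 regions reach this smallest value. Without WT replicate 1, 2 or 3 it was 0.156, 0.118 and 0.156, and no region in the genome passed.

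At that upstream region the level was 74.0, 214 and 199 times the genome mean in HIF-2α KIN, against 156, 463 and 213 times for exogenous HIF-2α. HIF-1α/2α lists gave 275, 507 and 297 times, HIF-2α/1α lists 239, 379 and 243 times and HIF-1α lists 140, 318 and 165 times. The ranges of the 4 exogenous lines overlapped, while all 3 HIF-2α KIN values lay below those of HIF-2α/1α and HIF-1α/2α. This difference was not tested, and how often it holds over all regions was not counted. The lowest value was that of HIF-2α KIN replicate 1 and the highest that of HIF-1α/2α replicate 2. These levels leave out the local background, which was 15 fragments in HIF-2α/1α replicate 2 and 2.26 in HIF-2α KIN replicate 3. By deposited fold over that background HIF-2α KIN replicate 3 (16.0) lay above HIF-2α/1α replicate 2 (14.1). The median percent rank was 7.39, from 2.54 in HIF-1α/2α replicate 1 to 40.1 in HIF-2α KIN replicate 1. As a reference, the promoter region of the glycolytic HIF target PGK1, which all tagged lists and no WT list called, had a median percent rank of 4.67.

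Of the other 5 VIM regions 2 were also called in WT. The promoter region (chr10:17226927-17229746, median summit 106 bp upstream of the nearest start site) was called in 14 tagged lists at 37.0 to 187 times the genome mean, with a median percent rank of 50.6. WT replicate 2 called it too, with 33 fragments, 118 times the mean and a percent rank of 11.0, above the median of the tagged lists. The calls did not pass against WT (exact p = 0.0564, adjusted p = 0.301). A region 12.9 kb upstream, inside the antisense lncRNA gene VIM-AS1, was called in 12 tagged lists at 38.3 to 113 times and in WT replicate 2 at 42.8 times. Its highest peaks lay at 2 places. The summit of WT replicate 2 was at 17216451, and those of the tagged lists were at 17215124 to 17215361 or at 17216460 to 17216540.

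Within VIM, a region 1.41 kb downstream of the start site was called in 8 tagged lists at 24.8 to 105 times the genome mean and not in WT. The promoter region of TRDMT1, 26.7 kb from VIM, was called in 10 tagged lists and not in WT. A region at the 3′ end was called in 2 lists. HIF-1α/2α replicate 2 alone had a strong peak over a coding exon of VIM, with 60 fragments, 211 times the mean and a percent rank of 10.3.

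Ranks were compared over the 2566 regions that all 12 exogenous lists called, each list ranked within these regions. Both member regions among them were in the VIM window. By IDR 1 of the 2 passed an exact permutation test within the DBD at p < 0.05, beside 31.4% of all shared regions, and the same 1 passed after adjustment over all shared regions, beside 12.5%. By DBD 1 of the 2 passed the same exact test unadjusted, beside 26.0%. Both calls were made by the VIM promoter region.

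The VIM promoter region stood low among the shared regions. Its percent ranks were lowest, and so the peak strongest, for HIF-1α/2α with 65.4, 73.8 and 78.8. HIF-1α lists gave 95.3, 83.5 and 81.0, HIF-2α lists 98.4, 89.0 and 92.5, and HIF-2α/1α lists 98.5, 99.9 and 99.9. It ranked higher with the HIF-2α IDR (83.0 ± 12.4, SD, n = 6) than with the HIF-1α IDR (93.0 ± 8.52), an exact permutation p of 0.005 and an adjusted p of 0.0401. It ranked higher with the HIF-1α DBD (79.7 ± 10.0) than with the HIF-2α DBD (96.4 ± 4.52), again with an exact p of 0.005, the smallest of 400 relabellings, but with an adjusted p of 0.0530. The merged region spans 2820 bp, and the ranked peaks did not share a summit. HIF-2α replicate 3 and HIF-2α/1α replicates 2 and 3 had theirs at 17227198, 17227135 and 17229250. The other exogenous lists had theirs at 17228413 to 17228803. The differences by IDR and DBD thus compare peaks of a merged region and not of a single site. WT replicate 2 also called the region, and its calls did not pass against WT (Fisher's exact test, adjusted p = 0.301). The ranked signal is therefore not shown to depend on the tag.

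These rank differences depended on settings. Ranked by fold enrichment the IDR difference was -7.23 points (exact p = 0.185) in place of -10.0, and the DBD difference 12.7 points (exact p = 0.05) in place of 16.7. Without HIF-2α replicate 2, or with summits held to within 250 bp, the region was no longer shared by all lists. For the VIM upstream region, lists carrying the HIF-2α IDR averaged 23.6 ± 9.57 and those carrying the HIF-1α IDR 43.4 ± 18.5 (SD, n = 6, exact p = 0.065, adjusted p = 0.178). Without HIF-1α replicate 1 or HIF-2α/1α replicate 3 that exact p was 0.045. By DBD it was 33.6 ± 13.0 for HIF-2α and 33.3 ± 22.4 for HIF-1α (exact p = 0.98). An IDR effect that differs between the DBDs did not pass for either region (exact p = 0.435 and 0.455).

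**Figure D4:**
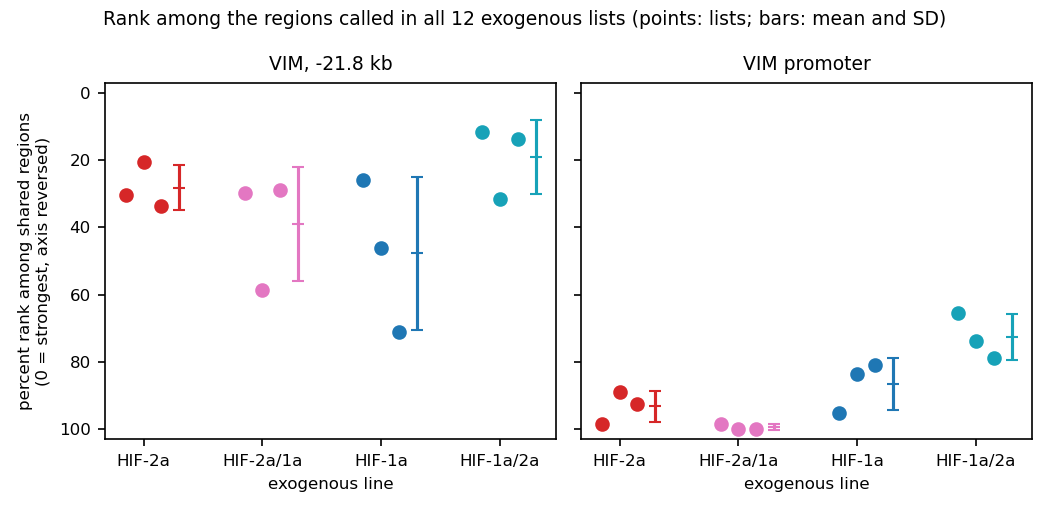
Percent rank among the 2566 regions called in all 12 exogenous lists (0 is the strongest, axis reversed) of the region upstream of VIM and of the VIM promoter region, with one point for each list and the mean with its SD (n = 3) beside the points of each line. The upstream region spreads from 11.7 to 71.2 and its lines overlap, while the promoter region has a percent rank of 65.4 or more in every list.

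By their ranks over the 12 exogenous lists, the shared regions most like the VIM upstream region lay nearest to TBL1Y, FGGY and SEMA6D, with mean absolute differences of 8.21, 8.38 and 9.15 points. The closest of these, at FGGY, was 149511 bp from a start site, and ranks from the same lists share their depth.

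Promoters of the members were set against all protein-coding genes. Of the 9 members 5 (SNAI2, ZEB2, CDH2, CDH6 and VIM) had a consensus region within 1 kb of a start site, beside 38.1% of 19663 genes. None of the 9 had a promoter region called in all 15 tagged lists and no WT list, beside 2.06%. In the windows, the median number of consensus regions was 2 for the members and 2 for all genes. The median number of tagged lists per region was 5 for the member regions and 5 for all consensus regions.

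Related genes were scored in the same way. Among 15 other EMT transcription factors and TGF-β pathway genes 8 had a promoter region and 0 had one in all tagged lists without WT. At TGFBR2 and TGFB2, a receptor and a ligand of the pathway, promoter regions were called in 13 tagged lists and not in WT. SMAD3, a signal transducer of the pathway, had 3 promoter regions, called in up to 15 tagged lists and up to 2 WT lists. Of 12 other cadherins and catenins 3 had a promoter region and 0 met the stricter rule, the most frequent being that of CTNNA1, the α-catenin gene, in 12 tagged lists. Of 15 epithelial genes 7 and 0 did so. A promoter region of CLDN4, a tight junction gene with 2 of them, and that of the splicing regulator ESRP2 were called in all 15 tagged lists. Both were also called in a WT list.

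Of 14 mesenchymal genes 9 had a promoter region. At AXL, a receptor tyrosine kinase gene, a promoter region was called in all 15 tagged lists and in a WT list. LOX, the gene of a collagen-crosslinking oxidase, had 2 promoter regions, called in up to 12 tagged lists and in no WT list.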

How the data were processed

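Per the labels and the methods, the authors aligned reads to hg38 with Bowtie2 2.3.4.1, called peaks with MACS2 in each anti-V5 library on its own, with the matching IgG library as control, and removed blacklisted regions with bedtools 2.28.0. IgG libraries enter only through these calls. For each peak the authors deposited a fold enrichment over local background, −log10 values for p and q, and another column with the summit offset. Fold and −log10 values were ranked within a list only. Levels given as times the genome mean leave out the local background of the peak. A count of fragments at the summit, the local background and the genome-wide mean were worked out from each deposited pair of fold and −log10 p-value, and matched at least 99.9567% of the peaks of every list within 0.01. In HIF-2α/1α replicate 2 the pileup was scaled by 0.949.

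Peaks overlapping by at least 1 bp were merged over the 18 lists, and regions of at least 2 lists were kept. Calls were compared with Fisher's exact test (two-sided), leaving out regions of at least 2 WT lists for the domains, and ranks by −log10 q with a two-sided exact permutation test of 400 relabellings. Lists were the units of both tests, and each side of a domain held 3 replicates of 2 lines. P-values were adjusted by Benjamini-Hochberg over all regions. Annotation was GENCODE release 44, and sequence was read from hg38. Python 3.11.15, NumPy 2.4.6, SciPy 1.17.1, pandas 2.3.3 and matplotlib 3.10.9 were used. The tests were checked on simulated data. Named were regions within 1 kb of a member's start site, the region of each member called in most tagged lists, regions passing a test, and the genes nearest the 3 regions most like the leading one. Further regions of the members, and genes of the lists with high counts, were named after their values were seen. The members and the gene lists were chosen with earlier results of these data known. One result of the mesenchymal list is not reported here.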

Additional observations from a re-analysis of the deposited data

How the results depend on the processing

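In place of 27 member regions there were 11 consensus regions when each list was held to its top 3984 peaks, 72 regions counted with 1 list enough and 15 lay within 10 kb of a gene. Leaving out each list in turn gave 26 to 28. The count passing against WT was 1, from 0 (any WT list left out) to 1. By IDR in calls the main count of 0 ranged from 0 to 1, the 1 being the region upstream of SNAI2 without HIF-1α/2α replicate 1 or 3. By DBD in calls the 2 regions gave 1 in the top peaks, where the CDH6 region was no longer a consensus region, and 2 to 2 without each list. In ranks, the count by IDR was 0 with summits within 250 bp, by fold, by the full-list rank and by fragments over the genome mean, and 0 to 2 without each list (0 without HIF-2α replicate 2; 2 without HIF-2α replicate 1 or 3, HIF-1α replicate 1 or HIF-2α/1α replicate 3). By DBD it was 0 with summits within 250 bp and by fold, and 0 to 2 without each list (0 without HIF-2α replicate 2, 2 without replicate 3). The DBD difference of the VIM upstream region, 0.27 points, turned sign by fragments (0.0251 on the log2 scale, where higher is stronger) and ranged from -5.00 to 6.09 points without each list. With a replicate block (exact permutation within numbers) the count was 0 against WT (VIM upstream region, adjusted p = 0.0994), 1 by DBD in calls (CDH2, p = 0.0312; CDH6, p = 0.0625) and unchanged at 0 by IDR in calls and at 1 and 1 in ranks. Of 45 same-numbered pairs of lists 1 correlated above 0.1, and the range was -0.0419 to 0.126. Replicate 2 was still the longest list of every line, with 9508 peaks in WT and 13193 to 20808 in the tagged lines. Whether replicate numbers mark a shared batch was not tested. The causes of these shifts were not tested, beyond the fewer lists of a leave-one-out. Summits of 4 to 248 fragments limit what a missing call can show.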
